A study of Mus musculus with 454 samples.

Results

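The genes described here are 9 interferon-stimulated genes, Ifit1, Ifit3, Isg15, Irf7, Oasl2, Ifi27, Usp18, Rsad2 and Bst2, out of 43346 genes in the count table. They were listed by name, and each of the 9 names matched 1 gene identifier. The series holds mouse brain libraries of 4 regions, with 115 labelled AMY, 112 labelled Nac, 112 labelled PFC and 115 labelled VTA; these are common abbreviations of amygdala, accumbens, prefrontal cortex and the ventral tegmental area, which the labels do not spell out. The mice were socially isolated or housed in groups, were female or male, and received cocaine at 7.5 mg/kg or saline on a chronic or an acute schedule. These 4 factors give 16 groups in each region with 5 to 8 libraries a group, and strain and age are not given in the labels. Every title joins a region letter (A, N, P or V) to a number, as in N1220; 86 such title numbers occur in all 4 regions, and each has a single condition. The labels do not say that a title number is an animal, so p-values measure the spread between libraries.

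Interferons are secreted proteins that cells release when their sensors detect foreign nucleic acid. Type I interferon binds the IFNAR1 and IFNAR2 receptor chains, the kinases JAK1 and TYK2 are activated, and a complex that holds IRF9 binds interferon-stimulated response elements in the promoters of target genes. In the brain, neurons, microglia, astrocytes and endothelial cells can all respond, and a low tonic level of signalling is found without infection.

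Of the 9 genes, IFIT1 binds foreign RNA ends, IFIT3 is of the same family, and OASL2 is an oligoadenylate synthetase-like protein. Viperin (Rsad2) makes a nucleotide analogue that stops viral polymerases, and tetherin (Bst2) holds budding virus at the cell surface. ISG15 is a ubiquitin-like modifier, USP18 removes it and also damps the type I receptor, IRF7 is the transcription factor that amplifies interferon production, and Ifi27 encodes a small membrane protein. On GRCm38 with the GENCODE M21 annotation, Ifit3 and Ifit1 lie on chromosome 19 plus strand, at chr19:34583531-34588731 and chr19:34640871-34650009. Isg15 lies at chr4:156199424-156200818 minus, Irf7 at chr7:141262706-141266481 minus, Oasl2 at chr5:114896936-114912234 plus, Ifi27 at chr12:103434211-103440239 plus, Usp18 at chr6:121245906-121270917 plus, Rsad2 at chr12:26442746-26456452 minus and Bst2 at chr8:71534255-71537456 minus. All 9 are protein-coding. Exons of Irf7 overlap Phrf1 and those of Usp18 overlap Gm44148 on the opposite strand, and Ifit3 has the near-identical neighbour Ifit3b, so counts of Irf7, Usp18 and Ifit3 are uncertain to that extent.

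The core of an interferon-stimulated response element was searched as GAAANNGAAA on both strands of the 300 bases from 250 before to 50 after the gene start, with overlapping matches merged for display (RefSeq, GRCm38.p6). Of the 9 genes, 7 had a promoter entry (not Ifi27 or Usp18), and 5 of these 7 held a match, against 1131 of 32851 promoters (3.44%) and 10 of 28 promoters of other interferon-stimulated genes. Oasl2 and Irf7 had no match in this window. The 5 windows of 80 bases that hold the matches are shown in the direction of the gene, with the matches in capitals. Whether the matches relate to the levels of these genes was not tested.
Isg15, chr4:156200847-156200926 minus: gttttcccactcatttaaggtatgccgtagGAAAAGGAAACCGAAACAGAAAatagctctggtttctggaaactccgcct
Bst2, chr8:71537556-71537635 minus: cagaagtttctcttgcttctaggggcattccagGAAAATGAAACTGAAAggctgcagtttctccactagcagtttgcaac
Rsad2, chr12:26456529-26456608 minus: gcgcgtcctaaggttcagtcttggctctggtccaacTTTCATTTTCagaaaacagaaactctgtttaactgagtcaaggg
Ifit3, chr19:34583354-34583433 plus: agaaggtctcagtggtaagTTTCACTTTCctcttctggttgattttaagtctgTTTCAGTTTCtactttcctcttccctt
Ifit1, chr19:34640759-34640838 plus: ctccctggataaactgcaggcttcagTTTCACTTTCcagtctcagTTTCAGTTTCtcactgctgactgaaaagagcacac
The Isg15 window held 3 overlapping matches and the Bst2 window 2, read on the gene's own strand. The matches in Ifit3 (2), Ifit1 (2) and Rsad2 (1) stood on the opposite strand.

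Library totals ran from 11.21 M to 52.34 M counts with a median of 21.71 M. In all, 8 libraries stood apart: 5 on the leading 4 principal components (N524, P1147, P1170, V1127 and V1236) and 3 by transcripts of the opposite sex at 5.87% to 35% of that sex's level (A1030, N1062 and N1094). No 2 libraries of a group agreed within counting noise. The Nac, PFC and VTA marker lists had their highest median in the region of that name. The AMY list did not separate AMY from VTA: its medians in AMY and VTA were 245 and 180 CPM after chronic cocaine and 257 and 183 CPM after chronic saline, but 273 and 315 CPM after acute cocaine and 286 and 341 CPM after acute saline, so VTA was the higher on the acute schedule.

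All 9 genes were detected in every region, most of them at a low level. Ifi27 was the highest, with a median of 15.7 CPM (counts per 1 M counts of the library) in AMY, 19.1 in Nac and 23.1 in PFC, while VTA had 21.2. Ifit3 had medians of 5.02 CPM in AMY, 4.90 in Nac and 4.2 in PFC, while VTA had 7.61. Usp18 was the lowest, with medians of 0.924, 0.890, 0.751 and 1.62 CPM in AMY, Nac, PFC and VTA, or median counts of 20, 19, 17 and 37 a library. Per kilobase of exon, Ifi27 still led, at 10.7 to 15.7 CPM per kb over the 4 regions, Ifit3 followed at 2.41 to 4.36, and the lowest was Usp18 in AMY, Nac and PFC (0.331, 0.319 and 0.269) but Rsad2 in VTA (0.436, with Usp18 at 0.579).

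The order of the regions differed between genes. Ifit1, with medians of 1.88 CPM in AMY, 1.75 in Nac and 1.61 in PFC, while VTA had 2.93, and Irf7, with 1.5, 1.71, 1.62 and 2.49 CPM in that order, were highest in VTA, as Ifit3 and Usp18 were. Oasl2 had 4.09 CPM in AMY and 3.94 in VTA, against 2.72 in Nac and 2.29 in PFC. Isg15 was highest in Nac, at 2.09 CPM, with 1.71 in AMY and 1.61 in PFC, while VTA had 1.72. Rsad2 had medians of 1.55 CPM in AMY, 1.72 in Nac and 1.42 in PFC, while VTA had 1.89. Bst2 had 1.82, 1.93, 2.06 and 2.34 CPM in AMY, Nac, PFC and VTA. The ranges over libraries overlapped between all regions for all 9 genes.

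**Figure D1:**
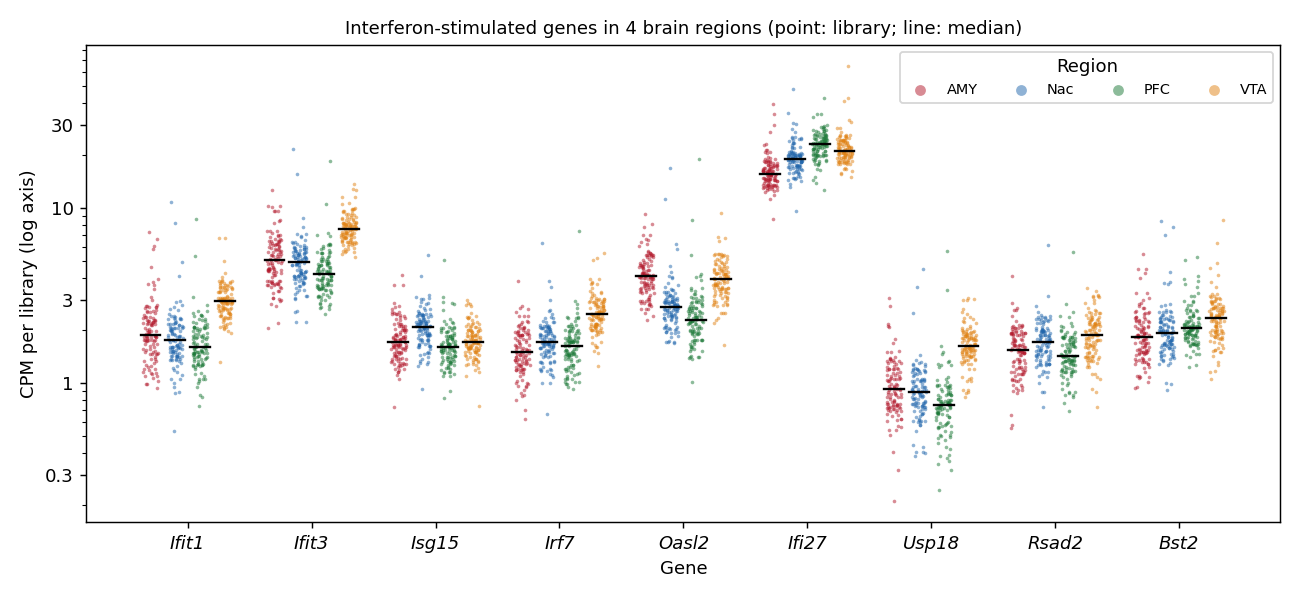
CPM of the 9 genes in each library (points; log axis), coloured by region, with the region median as a line. Ifit1, Ifit3, Irf7 and Usp18 have their highest median in VTA, Isg15 in Nac, Oasl2 in AMY and Ifi27 in PFC, and single libraries of Nac and PFC lie far above the others for most genes.

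Across the 6 pairs of regions, 41 of 54 gene-by-pair differences passed an adjusted p of 0.05 (edgeR quasi-likelihood test over all libraries with 64 group means, Benjamini-Hochberg). Most genes differ between regions in these data: the share of all tested genes called was 84.4% for AMY against Nac, 81.5% for AMY against PFC, 87.3% for AMY against VTA, 86% for Nac against PFC, 90.4% for Nac against VTA and 89.3% for PFC against VTA. The largest differences of the 9 genes were those of Usp18, with a log2 change of -0.81 ± 0.07 (SE) for AMY minus VTA, -0.82 ± 0.07 for Nac minus VTA and -1.0 ± 0.07 for PFC minus VTA. Irf7 had -0.75 ± 0.05 for AMY minus VTA, and Ifit3 -0.76 ± 0.05 for PFC minus VTA. Oasl2 was higher in AMY than in PFC (0.64 ± 0.06) and Nac (0.47 ± 0.06), but its difference between AMY and VTA, 0.03 ± 0.06, did not pass the test (adjusted p = 0.59). Neighbours in the order whose difference did not pass the test were AMY and Nac for Ifit1, Ifit3 and Usp18, Nac and PFC for Ifit1, Irf7 and Bst2, PFC and VTA for Bst2, Nac and VTA for Rsad2, AMY and PFC for Rsad2 and Isg15, and VTA with AMY or PFC for Isg15. In bulk tissue, fewer responding cells and less RNA per cell cannot be told apart. With the title number as a replicate block in limma voom (consensus correlation 0.0332), 41 of 54 differences passed, as without the block.

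Isolated mice were compared with group-housed mice, and none of the 9 genes passed the test in any region. The median log2 change of the 9 genes, isolated minus group-housed, was -0.05 in AMY, -0.08 in Nac and -0.12 in PFC, while VTA had 0.07, where the median over all tested genes was 0.00 in each. The lowest values were Ifit1 in PFC (-0.22 ± 0.09) and Oasl2 in Nac (-0.19 ± 0.09), and the highest was Ifit1 in VTA (0.18 ± 0.06). Ifit1 in PFC ranged from 0.736 to 5.29 CPM (median 1.51, n = 56) in isolated mice, against 0.995 to 8.64 CPM (median 1.78, n = 56) in group-housed mice. In VTA it ranged from 1.98 to 6.74 CPM (median 3.03, n = 56) in isolated mice, against 1.31 to 3.86 CPM (median 2.8, n = 59) in group-housed mice, so the housing groups overlapped widely in both regions. The edgeR test called 0 of 9 genes in each region, while 0, 2, 1 and 2 of the 9 had an unadjusted p under 0.05 (order AMY, Nac, PFC, VTA), against 4.07%, 2.44%, 2.39% and 3.31% of all genes; limma voom and DESeq2 also called 0. The background was the same: 0% of all genes were called in AMY, 0% in Nac and 0% in PFC, while VTA had 0%.

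Within the series of title numbers from 1000, 1100 and 1200 upward, housing again gave 0 calls among the 9 genes. Within the 500 series in Nac, Rsad2 (log2 change -0.92 ± 0.28), Irf7 (-0.88 ± 0.31) and Bst2 (0.90 ± 0.29) were called. That fit rests on 10 libraries, 1 of which stands apart, and calls 47.5% of all genes there.

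Acute cocaine was compared with acute saline, and none of the 9 genes passed the test in any region. The median log2 change of the 9 genes was -0.17 in AMY, -0.19 in Nac and -0.07 in PFC, while VTA had -0.06, and 9 of 9 values were below 0 in Nac. Ifit3 in AMY ranged from 2.19 to 10.1 CPM (median 3.74, n = 28) after acute cocaine, against 2.06 to 9.66 CPM (median 4.56, n = 27) after acute saline. Its log2 change of -0.24 ± 0.12 had an edgeR adjusted p of 1. With an unadjusted p under 0.05 there were 2, 1, 0 and 0 of the 9 genes in AMY, Nac, PFC and VTA, against 3.09%, 5.18%, 10.6% and 6.47% of all genes. Limma voom and DESeq2 called 0 too, and of all genes 0% were called in AMY, 0% in Nac and 0.0647% in PFC, while VTA had 0.0467%.

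Chronic cocaine against chronic saline also gave 0 calls among the 9 genes by edgeR, limma voom and DESeq2, while 0, 5, 1 and 1 genes had an unadjusted p under 0.05 (order AMY, Nac, PFC, VTA), against 6.68%, 19.2%, 23.5% and 5.69% of all genes. The background of calls after adjustment was 0.0518% of all genes in AMY, 0.151% in Nac and 7.12% in PFC, while VTA had 0.0817%. Chronic cocaine has 24 title numbers in the 1000 series and 8 in the 1200 series. Chronic saline has 14 in the 500 series and 19 in the 1200 series. Drug and number series share only the 1200 series here and are otherwise confounded. The lowest values came from Nac. Tetherin (Bst2) ranged from 0.982 to 2.54 CPM (median 1.75, n = 29) after chronic cocaine, against 0.996 to 7.82 CPM (median 1.82, n = 28) after chronic saline, a log2 change of -0.42 ± 0.14 (edgeR adjusted p = 0.118). Oasl2 ranged from 1.70 to 3.45 CPM (median 2.63) after chronic cocaine, against 1.72 to 17.0 CPM (median 2.68) after chronic saline, a log2 change of -0.35 ± 0.13 (adjusted p = 0.142). The medians of the arms were close, and the highest saline libraries lay far above both. Without N1220, a chronic saline library described further on, the edgeR changes were -0.29 for Bst2 (adjusted p = 0.207) and -0.16 for Oasl2 (0.416). The Ifit3 change was -0.16 (0.363), against -0.30 with N1220 (adjusted p = 0.144). For Bst2 the highest chronic saline library, at 7.82 CPM, was not N1220 (6.98 CPM). It was a library of the 500 series and stayed in this fit.

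Among the 9 comparisons within a region, the 2 of schedule gave the only calls of the 9 genes, and Ifit3 was the gene concerned in most of them. In mice given cocaine, Ifit3 was higher on the chronic schedule in AMY, PFC and VTA. In AMY it ranged from 3.64 to 12.7 CPM (median 5.37, n = 30) after chronic cocaine, against 2.19 to 10.1 CPM (median 3.74, n = 28) after acute cocaine, a log2 change of 0.46 ± 0.12 (edgeR adjusted p = 0.00283). In PFC it ranged from 3.16 to 6.21 CPM (median 4.85, n = 28) after chronic cocaine, against 2.48 to 5.80 CPM (median 3.61, n = 30) after acute cocaine, a log2 change of 0.36 ± 0.11 (adjusted p = 0.011). In VTA it ranged from 5.62 to 11.6 CPM (median 8.07, n = 29) after chronic cocaine, against 5.57 to 12.6 CPM (median 6.85, n = 29) after acute cocaine, a log2 change of 0.27 ± 0.07 (adjusted p = 8.43e-04). The ranges overlapped, yet 29 of 30 chronic libraries in AMY, 27 of 28 in PFC and 26 of 29 in VTA lay above the acute median. In Nac, with medians of 4.91 and 4.17 CPM for chronic and acute cocaine, the change of 0.19 ± 0.11 did not pass the test. In all 4 regions, 4 of 4 pairs of groups matched for sex and housing had the higher Ifit3 median on the chronic schedule.

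Irf7, the amplifier of interferon production, was the other gene called under cocaine, in AMY alone of the regions tested. It ranged from 0.848 to 3.85 CPM (median 1.59, n = 30) after chronic cocaine, against 0.704 to 2.76 CPM (median 1.28, n = 28) after acute cocaine, a log2 change of 0.34 ± 0.12 (edgeR adjusted p = 0.0265). A difference between regions in this change was not tested. Across regions, 2 of 9 genes were called in AMY, 0 in Nac and 1 in PFC, while VTA had 1, with 4, 1, 1 and 1 at an unadjusted p under 0.05, against 32.3%, 37.3%, 32.2% and 46.5% of all genes. The share of all genes called was 18.4% in AMY, 24.3% in Nac and 18.5% in PFC, while VTA had 38.2%, so 2 of 9 in AMY was near the background and the other counts were below it.

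Chronic and acute cocaine both occur among title numbers of the 1000 series, and they were compared within it. Every acute cocaine number of that series is lower than every chronic cocaine number. Schedule and number order therefore cannot be told apart within the 1000 series either. There Ifit3 kept its call in PFC (0.32 ± 0.10, adjusted p = 0.0179) and VTA (0.25 ± 0.09, adjusted p = 0.0344), against backgrounds of 14.9% and 26.7% of genes. It did not in AMY (0.39 ± 0.16, adjusted p = 0.107; background 13.2%), where Irf7 had 0.24 ± 0.15 (adjusted p = 0.299), and none of the 9 genes was called in Nac (background 4.65%). With the series as a covariate over all libraries, Ifit3 had 0.42 in AMY (adjusted p = 0.0202), 0.34 in PFC (0.0587) and 0.33 in VTA (8.75e-04), and Irf7 in AMY 0.34 (0.0578).

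In mice given saline, Ifit3 was again higher on the chronic schedule. In VTA it ranged from 6.38 to 12.9 CPM (median 8.15, n = 29) after chronic saline, against 5.26 to 13.8 CPM (median 7.14, n = 28) after acute saline, a log2 change of 0.20 ± 0.07 (edgeR adjusted p = 0.0109). In Nac it ranged from 3.29 to 21.7 CPM (median 5.43, n = 28) after chronic saline, against 3.16 to 15.6 CPM (median 4.43, n = 27) after acute saline, a change of 0.30 ± 0.11 (adjusted p = 0.0473). In PFC it ranged from 2.70 to 18.5 CPM (median 4.31, n = 26) after chronic saline, against 2.64 to 10.6 CPM (median 3.70, n = 28) after acute saline, a change of 0.30 ± 0.11 (adjusted p = 0.0356). The arms overlapped in each region, and 0.29 ± 0.12 in AMY missed the threshold (adjusted p = 0.0645). Viperin (Rsad2) went the other way in VTA. It ranged from 0.885 to 3.12 CPM (median 1.58, n = 29) after chronic saline, against a median of 2.19 CPM and a highest value of 3.34 CPM (n = 28) after acute saline, a log2 change of -0.41 ± 0.10 (adjusted p = 3.55e-04). Only 4 of its 29 chronic libraries lay above the acute median, and 0 of 4 matched pairs of groups had the higher chronic median in VTA. Calls numbered 0, 1, 1 and 2 of 9 in AMY, Nac, PFC and VTA, against a background of 20.4%, 20.9%, 23.3% and 43.6% of all genes, so each count was below the background share.

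**Figure D2:**
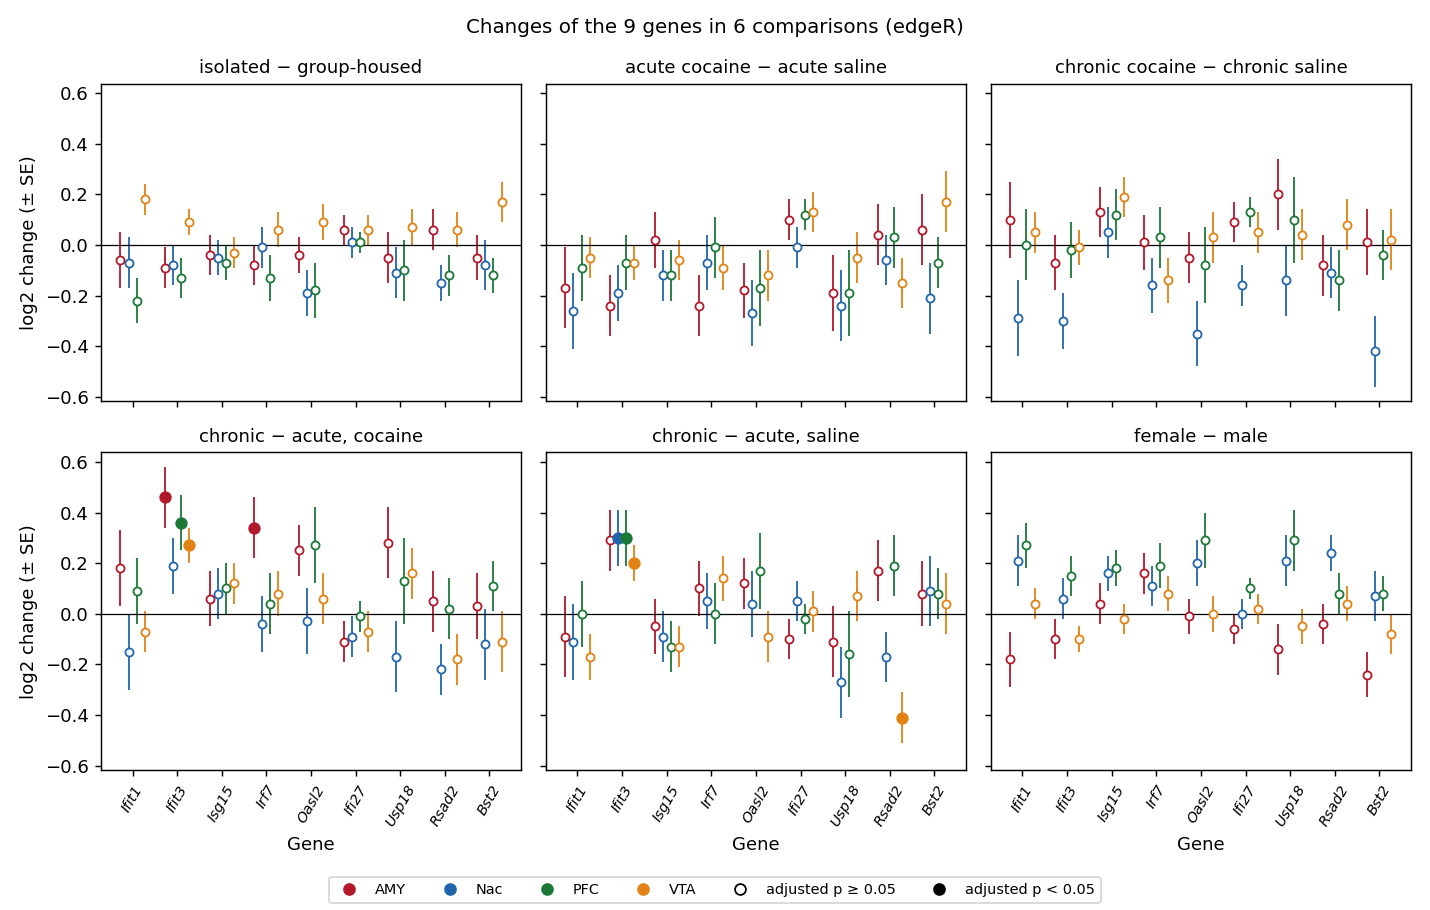
Log2 change (± SE) of the 9 genes in 6 comparisons, coloured by region; filled points passed an edgeR adjusted p of 0.05. The filled points are Ifit3 in 6 of 8 schedule tests, Irf7 in AMY under cocaine (0.34) and Rsad2 in VTA under saline (-0.41).

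**Figure D3:**
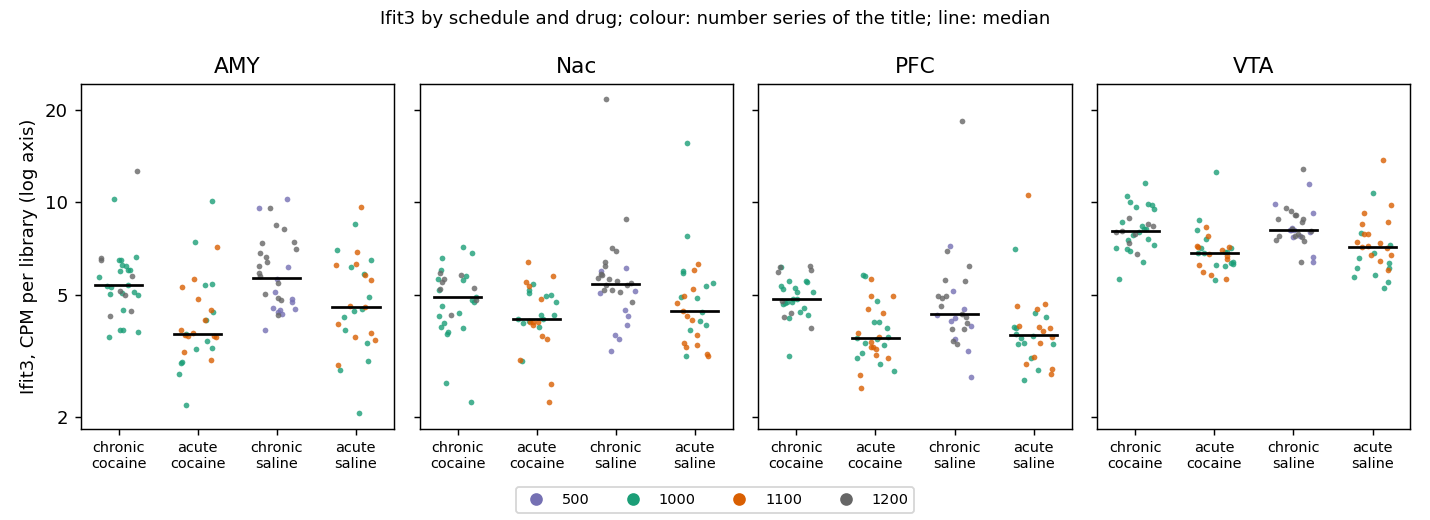
Ifit3 CPM per library (log axis) by region, schedule and drug, with the median as a line and colour for the number series of the title. The chronic median lies above the acute one for both drugs in all 4 regions, and in Nac and PFC 1 chronic saline library lies at 21.7 and 18.5 CPM.

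The saline comparison has 2 limits. Acute saline titles belong to the 1000 and 1100 series and chronic saline titles to the 500 and 1200 series, so schedule and number series cannot be told apart there. Within chronic saline the Ifit3 median was 4.35 CPM in the 500 series and 5.67 CPM in the 1200 series in Nac, and 4.74 and 6.39 CPM in AMY. With the series as an additive covariate, a fit added after seeing the data, no saline call was made: Ifit3 had 0.14 in Nac, 0.38 in PFC and 0.35 in VTA (adjusted p = 1, 0.54 and 0.0923) and Rsad2 -0.08 in VTA (adjusted p = 0.831). Leaving out every library that stands apart put Ifit3 in Nac at 0.29 (adjusted p = 0.0577, not called). Without N1220 and P1220, the Ifit3 changes in Nac and PFC were 0.15 and 0.16 and were not called (adjusted p = 0.286 and 0.19). Other genes were then called in these regions, Rsad2 (-0.28 ± 0.09) and Usp18 (-0.47 ± 0.13) in Nac and Usp18 (-0.40 ± 0.14) and Isg15 (-0.23 ± 0.09) in PFC. The calls of Ifit3 and Rsad2 in VTA were made without V1220 too (0.20 and -0.42). The backgrounds without that title number were 20.1% of genes in AMY, 19.8% in Nac and 23.6% in PFC, while VTA had 42.7%.

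Markers of microglia and vessels were counted in the same tests. After chronic against acute cocaine, 6 of 12 microglia markers rose in AMY, 2 in Nac and 5 in PFC, while VTA had 12, and 10, 2, 3 and 4 of 12 endothelial markers rose in the same order; 0 of either list fell. Against 18.4%, 24.3%, 18.5% and 38.2% of all genes called in either direction, the microglia counts were above the background in AMY, PFC and VTA. The endothelial count was above it in AMY and near it in PFC (3 of 12) and VTA (4 of 12). In Nac, 2 of 12 was below it for both lists. The summed microglia level in VTA ranged from 308 to 642 CPM (median 399) after chronic cocaine, against 281 to 453 CPM (median 330) after acute cocaine. The summed endothelial level in AMY ranged from 228 to 497 CPM (median 304) after chronic cocaine, against 192 to 354 CPM (median 252) after acute cocaine. In saline, 6, 4, 2 and 12 of 12 microglia markers rose in AMY, Nac, PFC and VTA, and 10, 2, 2 and 3 of 12 endothelial markers; 1 microglia marker fell in PFC and 2 endothelial markers in VTA. The saline background was 20.4%, 20.9%, 23.3% and 43.6% of all genes. Microglia counts were above it in AMY and VTA, somewhat above it in Nac and near it in PFC. Endothelial counts were above it in AMY, below it in Nac and PFC and near it in VTA. The region's own markers also moved with the schedule in VTA, with a summed median of 5350 CPM after chronic and 3090 CPM after acute cocaine, and 4950 CPM after chronic and 3040 CPM after acute saline. None of the microglia and endothelial markers was at 0 in a whole arm, and the part of these lists in the Ifit3 and Rsad2 changes was not tested.

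The rest of the pathway was uneven on the chronic schedule. All 9 interferon ligand genes listed had a median of 0 CPM in every region and were not tested. Of 38 other interferon-stimulated genes, 32 to 34 were tested a region. Under cocaine, 7 of them rose and 1 fell in AMY, 8 rose and 1 fell in PFC, 2 rose and 3 fell in VTA, and 1 fell in Nac. The 8 of 34 in AMY was near the 18.4% of all genes called there, and 9 of 32 in PFC was somewhat above 18.5%. The 5 of 32 in VTA and 1 of 33 in Nac were below 38.2% and 24.3%. Under saline, 8 rose in AMY with 0 falling, 2 rose and 1 fell in PFC, 2 rose and 3 fell in VTA, and in Nac 1 rose and 2 fell, near the background in AMY and below it in the other regions. Ifit3b, the near-copy of Ifit3, rose under cocaine in AMY (0.42 ± 0.09), PFC (0.39 ± 0.10) and VTA (0.27 ± 0.06). The antiviral GTPase Mx2 rose in PFC under cocaine (0.47 ± 0.10) and saline (0.35 ± 0.11), while Mx1 fell in VTA under saline (-0.90 ± 0.21). Oas1c, of the oligoadenylate synthetase family, rose in VTA under both (0.46 ± 0.08 and 0.57 ± 0.08).

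Among 10 receptor and signalling genes, Irf9, the DNA-binding protein of the complex described above, fell on the chronic schedule under saline in AMY (-0.38 ± 0.06), Nac (-0.24 ± 0.05), PFC (-0.27 ± 0.06) and VTA (-0.32 ± 0.04), and under cocaine in AMY (-0.24 ± 0.06) and VTA (-0.28 ± 0.04). Jak2 fell under cocaine in AMY, PFC and VTA (-0.18, -0.15 and -0.15). Under saline Jak2 fell in AMY, Nac and PFC (-0.16, -0.16 and -0.23). Of 6 negative regulators, Ptpn6, a phosphatase of blood cells and microglia, rose in all 4 regions. Its changes were 0.22 to 0.48 under saline and 0.16 to 0.46 under cocaine. Ptpn1 fell under saline in all 4 regions (-0.29 to -0.07) and under cocaine in AMY, PFC and VTA (-0.23 to -0.08). Among 15 tested sensor genes the endosomal RNA sensor Tlr3 rose under cocaine in AMY (0.44 ± 0.07) and PFC (0.21 ± 0.05). Under saline it rose in AMY (0.35 ± 0.07). The mitochondrial adaptor Mavs fell in VTA under cocaine (-0.27 ± 0.04) and saline (-0.32 ± 0.04). Under cocaine Tlr7 fell in Nac (-0.28 ± 0.08). Ticam1 rose there (0.15 ± 0.05) but fell in PFC (-0.18 ± 0.05) and VTA (-0.21 ± 0.04). The schedule tests called 18.4% to 43.6% of all genes, so single calls in the receptor, regulator and sensor lists are not read as results about those lists. Of 23 interferon gamma-induced genes tested, 10 rose and 0 fell in AMY under cocaine, with Irf8 at 0.34 ± 0.06 and Gbp4 at 0.67 ± 0.15; 2 rose in Nac and 7 in PFC, while VTA had 3, where 1 fell. That is above the background in AMY and PFC and below it in Nac and VTA. Under saline 4 rose and 2 fell in AMY, 1 rose and 3 fell in Nac, 1 rose in PFC, and 3 rose and 4 fell in VTA. That is near the 20.4% and 20.9% of all genes called in AMY and Nac. It is below the 23.3% and 43.6% called in PFC and VTA. The listed genes that fell under saline include Ciita in AMY (-0.44 ± 0.12) and Tgtp2 in AMY (-0.66 ± 0.23) and Nac (-0.60 ± 0.22).

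Sex gave no call among the 9 genes, by edgeR, limma voom or DESeq2. In Nac and PFC, 9 of 9 estimates were at or above 0, with a median log2 change, females minus males, of 0.16 and 0.18; in AMY and VTA the medians were -0.06 and 0.00. Rsad2 in Nac ranged from 0.729 to 6.16 CPM (median 1.88, n = 52) in females, against 0.886 to 2.76 CPM (median 1.59, n = 60) in males, a log2 change of 0.24 ± 0.07 (edgeR adjusted p = 0.152). With an unadjusted p under 0.05 there were 1, 5, 6 and 1 of 9 genes by region, against 16.1%, 9.09%, 13.2% and 6.98% of all genes. After adjustment 2.19%, 0.272%, 1.12% and 0.332% of all genes were called. N1220 and P1220 are female libraries, and without them the medians were 0.11 in Nac, with 7 of 9 estimates positive, and 0.11 in PFC, with 9 of 9. Within the 500 series in Nac, Bst2 (1.13 ± 0.28) and Ifi27 (0.76 ± 0.25) were called in the same 10 libraries as above, where 47% of all genes were called.

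The effect of isolation was then compared between the sexes and between drugs, and the effect of cocaine between schedules. By edgeR, none of the 9 genes was called in these 3 interaction tests in any region, nor by limma voom or DESeq2. In the housing by sex test 0, 1, 0 and 0 genes had an unadjusted p under 0.05 (order AMY, Nac, PFC, VTA), in the housing by cocaine test 0, 0, 0 and 2, and in the cocaine by schedule test 0, 0, 0 and 1. Of all genes, 1.92% to 12.2% had such a p in the first test, 1.55% to 8.21% in the second and 3.49% to 14.7% in the third. The background was 0% of all genes in every region for housing by sex and cocaine by schedule, and 0%, 0%, 0% and 0.0233% for housing by cocaine in AMY, Nac, PFC and VTA. The largest value was that of Bst2 in VTA for housing by cocaine, 0.46; the lowest adjusted p of the 9 genes in that test and region was 0.748.

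To ask whether single title numbers were high in all their regions, the log2 CPM of the 9 genes, centred on the region median, was averaged for each library into an index. A library counted as high when its robust z within the region was over 3. By this measure 13 libraries were high, 2 in AMY, 4 in Nac and 5 in PFC, while VTA had 2. They came from 12 title numbers, and the number shared by N1220 and P1220 was the one high in more than 1 region. No title number found in 2 or more regions was high in all of them, and of the 86 with 4 regions 0 were. The high libraries were 6 of 225 isolated and 7 of 229 group-housed, and 8 of 225 female and 5 of 229 male libraries. More were on saline (9 of 223) than on cocaine (4 of 231), and more on the acute (9 of 225) than the chronic schedule (4 of 229). By number series they were 0 of 45 (500 series), 6 of 196 (1000), 3 of 113 (1100) and 4 of 100 (1200). These differences were not tested. Of the 13, P1147 and P1170 are among the libraries that stand apart.

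**Figure D4:**
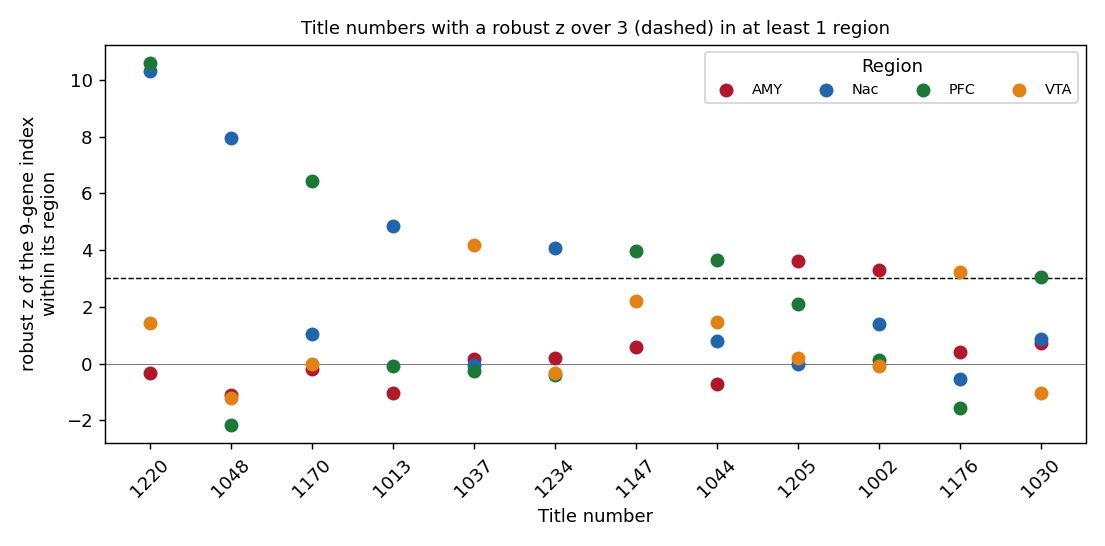
Robust z of the 9-gene index within its region for the 12 title numbers over 3 (dashed line) in at least 1 region, coloured by region. N1220 reaches 10.3 and P1220 10.6, while A1220 and V1220 lie at -0.33 and 1.44; the other 11 numbers pass the line in 1 region each.

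The libraries N1220 and P1220 are from a group-housed female condition on chronic saline. N1220 was the highest of 112 libraries for 7 of the 9 genes and P1220 for 8 of 9. Oasl2 stood at 17.0 CPM in its Nac library, where the other 5 libraries of the group ranged from 2.36 to 4.10 CPM, and at 19.0 CPM in its PFC library, where the other 6 ranged from 1.97 to 2.85 CPM. These are 6.22 and 8.33 times the region medians. Ifit1 stood at 10.8 CPM in Nac (others 1.43 to 2.43) and 8.64 CPM in PFC (others 1.46 to 2.10). Usp18 stood at 4.47 CPM in Nac (others 0.441 to 1.3) and 5.66 CPM in PFC (others 0.566 to 0.969). Ifi27 was raised least, at 1.58 and 1.27 times the region median in Nac and PFC.

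The same number was unremarkable in AMY and VTA. In AMY its 9 genes lay at 0.708 to 1.24 times the region median, with Ifit1 at 1.33 CPM and Oasl2 at 3.96 CPM. In VTA they lay at 1.02 to 1.44 times the median, with Usp18, at 2.33 CPM, and Oasl2, at 5.33 CPM, above the other 7 libraries of the group (0.893 to 1.84 and 2.3 to 4.89 CPM). The title number was high in 2 of its 4 regions.

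**Figure D5:**
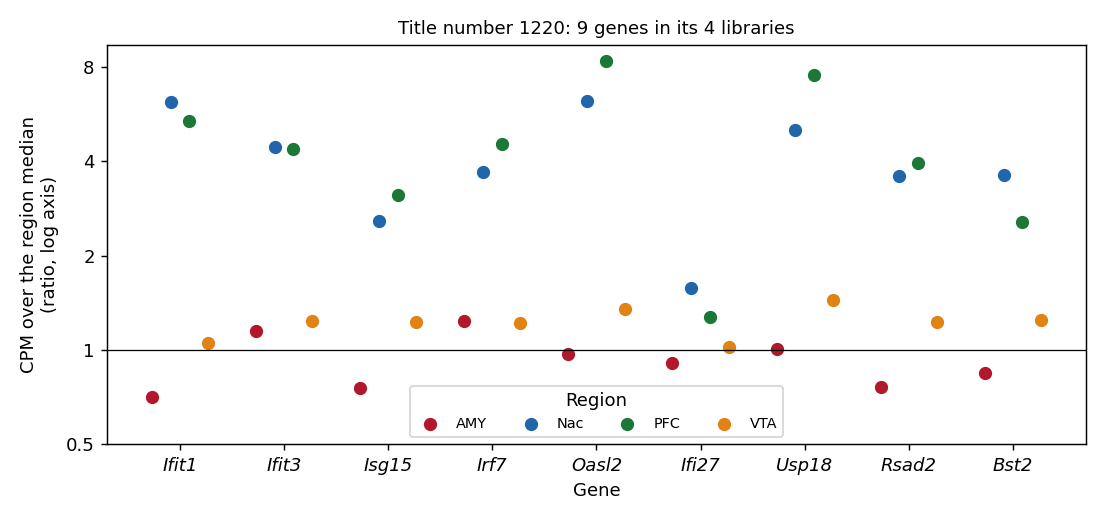
CPM of the 9 genes in A1220, N1220, P1220 and V1220 as a ratio to the region median (log axis). In Nac and PFC the ratios run from 1.27 to 8.33, with Ifi27 lowest in both, while AMY and VTA stay between 0.708 and 1.44.

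Other interferon-stimulated genes did the same in those 2 libraries. Of 36 with at least 10 counts in some library of the region, 20 were the highest of 112 in the Nac library and 24 in the PFC library. The chemokine Cxcl10 stood at 2.64 CPM in Nac and 1.81 CPM in PFC, against region medians of 0.0479 and 0.0543 CPM; this gene was chosen after its values were seen. Of 23 interferon gamma-induced genes, 6 and 7 were the highest of 112. None of the 9 ligand genes had a count in either library. Beside this, in the Nac library the summed endothelial markers stood at 409 CPM (rank 3 of 112, 11 of 12 above the median), the meningeal ones at 310 CPM (rank 3, 8 of 8), the perivascular macrophage ones at 29.7 CPM (rank 3, 8 of 8) and the microglia ones at 529 CPM (rank 42). In the PFC library the same lists ranked 17, 33, 23 and 16. Blood leukocyte markers ranked 5 in Nac and 22 in PFC, with 3 of 12 at 0 in each. The part of these cell types was not tested.

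The other 11 high title numbers were high in 1 region each. N1048, a group-housed male on acute saline, had a robust z of 7.96 and 9 of 9 genes above the region median, at 1.47 to 4.68 times it; its PFC library had a robust z of -2.16. This library also ranked first of 112 for meningeal (916 CPM, others up to 370), endothelial (490 CPM, others up to 418), perivascular macrophage (42.6 CPM, others up to 30.6) and blood leukocyte markers (14.7 CPM, others up to 9.82). P1170, an isolated female on acute saline, had a robust z of 6.45, the highest microglia sum of 112 libraries (634 CPM) and the lowest endothelial sum (82.6 CPM, others from 200). Its oligodendrocyte sum was 9680 CPM (rank 3, median of the others 2390) and its astrocyte sum 6110 CPM (rank 2, median of the others 4380). Its pericyte and smooth muscle sum was the lowest (109 CPM, others from 146). As robust z, N1013 had 4.86, V1037 had 4.18, N1234 had 4.06, P1147 had 3.96 and P1044 had 3.66. A1205 had 3.60, A1002 had 3.30, V1176 had 3.21 and P1030 had 3.04. Among the Nac libraries, N1234 ranked 2 of 112 for summed meningeal (370 CPM), endothelial (418 CPM) and pericyte and smooth muscle markers (444 CPM), and N1013 ranked 2 for microglia markers (755 CPM). A1205 ranked 4 of 115 for microglia (587 CPM), endothelial (393 CPM) and pericyte and smooth muscle markers (323 CPM), and A1002 ranked 7 for meningeal ones (293 CPM). P1030, P1044 and V1037 had ranks of 39 or lower down for microglia, endothelial and meningeal markers, and so had V1176; P1147 ranked 19 for microglia markers. The part of these cell types was not tested. In 12 of the 13 high libraries all 9 genes were above the region median, and in P1030 it was 8 of 9. The high libraries were picked by the mean of these same 9 genes, so this largely follows from the choice.

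Levels of the 9 genes in one region were weakly related to those in another region of the same title number. Over 54 pairs of a gene and 2 regions (99 to 106 shared title numbers, deviations from the group mean), 1 passed an adjusted p of 0.05 by Pearson's r and 1 by Spearman's rho in two-sided permutation tests with 100000 resamples, and none by both. The first was Ifit3 between Nac and PFC (r = 0.38, permutation p = 2.4e-04, adjusted 0.013; rho = 0.29, permutation p = 0.00323, adjusted 0.0872; n = 99). Without the 2 title numbers farthest from the Nac median r was 0.24, and without N1220 and P1220 it was 0.20. Within number series r was 0.27 (500 series, n = 7), 0.14 (1000, n = 44), 0.25 (1100, n = 25) and 0.71 (1200, n = 23), the last holding N1220 and P1220. The second was Ifit3 between AMY and PFC (r = 0.25, permutation p = 0.0132, adjusted 0.102; rho = 0.34, permutation p = 6.2e-04, adjusted 0.0335; n = 102; r = 0.28 without the 2 farthest), at 0.41, 0.25, 0.09 and 0.27 within the 500, 1000, 1100 and 1200 series. Median r over the 9 genes was 0.28 for Nac and PFC and between -0.02 and 0.15 for the other 5 pairs of regions; without the number of N1220 and P1220 it was 0.11 for Nac and PFC, and 0.18 for AMY and PFC.

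Within a region, by contrast, the 9 genes varied together. All 36 pairs of them had a positive Pearson's r over libraries (deviations from the group mean), with medians of 0.55 in AMY (n = 115), 0.50 in Nac (n = 112), 0.50 in PFC (n = 112) and 0.41 in VTA (n = 115); the points share library and depth, and these values are descriptions. Of 16200 genes tested in all 4 regions, those most like the mean of the 9 were Gbp2 (mean r over the 4 regions 0.70), Ifitm3 (0.69), H2-K1 (0.69), Gbp3 (0.69), B2m (0.66), H2-D1 (0.66), Iigp1 (0.65), Rtp4 (0.65), Ddx58 (0.65) and Irgm1 (0.62). The list holds interferon-inducible GTPases, class I antigen presentation genes and an RNA sensor. Cell markers also varied with the index, on the same deviations: meningeal markers had r = 0.77 in Nac and 0.61 in AMY but 0.28 in PFC, while VTA had 0.28, endothelial markers 0.63 in AMY, 0.63 in Nac and 0.09 in PFC, while VTA had 0.50, and microglia markers 0.47, 0.39, 0.54 and 0.18 in AMY, Nac, PFC and VTA. Neuron markers had r between -0.04 and 0.07. Whether cell make-up accounts for the shared variation was not tested.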

How the data were processed

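Polyadenylated RNA was made into stranded libraries and read as 50-base single ends, per the labels' protocols. The deposited values are counts of reads per gene; the tools named in the submitters' processing notes are featureCounts, limma and STAR, with the builds GRCm38 and mm10. No tool version, strand option or annotation release is named there. The 884 genes without a symbol (0.11% of counts) stayed in under their identifiers. The 9 genes and all lists were chosen with earlier results of these data known.

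Each region was fitted with edgeR 4.0.16 (R 4.3.3; TMM, filterByExpr, 16 group means, robust quasi-likelihood test, Benjamini-Hochberg over all genes tested), and regions were compared over all libraries. SE is the change over the square root of F. CPM divides by the library total; log2 CPM used a prior count of 2. Alternatives were limma 3.58.1 voom, DESeq2 1.42.0, RLE factors, no filter, number series as a covariate or stratum, and libraries left out. The fits were tested on simulated data. Named genes are the 9, up to 4 called genes a list and comparison by lowest p, and the 10 most alike.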

Additional observations from a re-analysis of the deposited data

Results flagged for a closer look

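Outliers of the 9-gene index (mean log2 CPM relative to the region median) were sought within groups by Dixon's criterion. It flags about 1 in 20 groups of normally distributed values, and whether the index is so distributed was not tested. In 10 of the 64 groups of 5 to 8 libraries the highest library stood apart from the others. In Nac these were N1220 in group-housed females on chronic saline (index 1.88, next 0.27), N1048 in group-housed males on acute saline (1.45, next 0.22), N1013 in isolated females on acute saline (0.88, next 0.17) and N1178 in isolated males on acute saline (0.48). In PFC they were P1220 (1.95, next 0.4), P1170 in isolated females on acute saline (1.17, next 0.1), P1147 in group-housed males on acute saline (0.71, next 0.05) and P1044 in group-housed females on acute saline (0.66, next 0.06). In AMY they were A1205 in group-housed males on chronic cocaine (1.12, next 0.25) and A1075 in isolated males on chronic cocaine (0.68, next 0.11). No group of VTA had such a library, and none stood apart on the low side. P1147 and P1170 are also among the libraries that stood apart on the leading principal components.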

How the results depend on the processing

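Over the 4 regions, 4 of 36 gene-by-region tests were called for schedule in saline and 4 for schedule in cocaine. Without the low-count filter the saline count was 2, and with number series as a covariate, an alternative chosen after seeing the data, it was 0 (Rsad2 in VTA at -0.08). Schedule in cocaine gave 2 with that covariate and 2 within the 1000 series, with Ifit3 between 0.25 and 0.47 in AMY, PFC and VTA under all alternatives run. Housing gave 3 and sex 2 within the 500 series, from 10 Nac libraries, and 0 otherwise. Leaving out in turn each of 5 replicates of the smallest group (AMY isolated males, acute cocaine) gave 4 to 4 calls for each schedule test and 0 to 0 elsewhere. Title numbers high in at least 1 region numbered 6 at a robust z over 4 (12 at 3), and that of N1220 and P1220 was the one high in 2 regions under all 13 alternatives. Without the group mean taken off, 7 of 54 correlations between regions passed (1 with it), 5 of them between Nac and PFC. The replicate block left 41 of 54 region differences. No called value changed sign under any alternative run; the causes of these shifts were not tested. Usp18 rested on median counts of 17 to 37 a library, which limits its precision.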
